A study of Mus musculus with 8 samples.

Results

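The Gata2 locus was examined as the set of ATAC-seq peaks that overlap a stretch of mouse chromosome 6 (mm9, chr6:88060000-88165000) around the gene and its upstream enhancers. The stretch was set by position, with earlier results of these data known, and held 24 of the 134473 peaks in the table. The cells were MPP2, bone marrow progenitors that can form several blood lineages and tend toward platelets and red cells, from C57BL/6 mice aged 8 to 12 weeks. Both groups came from the LSK gate (no lineage markers, Sca1 and Kit present), lacked Flt3, carried CD150 as well as CD48, and were positive for Gata1. One group was positive for Vwf, the gene of von Willebrand factor (Vwf+Gata1+ MPP2), and the other was negative (Vwf-Gata1+ MPP2). Each group had 4 libraries of 500 cells. The labels do not say how Vwf and Gata1 were read in the sort, or from how many animals the libraries came, so p-values reflect only the spread among these libraries, which may be technical. The question put to the locus was whether its promoters and enhancers were open to a different degree in the 2 subpopulations.

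GATA2 is a zinc-finger transcription factor that binds GATA motifs and is needed to form and maintain blood stem and progenitor cells. Its gene is controlled by enhancers named for their distance in kb from the gene's start. During red cell maturation GATA1 takes the place of GATA2 at several of these sites and Gata2 is shut down, an exchange known as the GATA switch. The -77 enhancer lies far upstream and, in mouse, is needed for Gata2 expression in myeloid and erythroid progenitors, while the +9.5 enhancer sits in an intron and is needed for stem cells to emerge in the embryo. Transcription starts at a distal promoter, called IS and used mainly in blood and neural cells, or at a more widely used promoter further into the gene, called IG.

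RefSeq lists 2 starts for Gata2, 4.77 kb apart on the plus strand. The 250 bases before each are shown because peaks lay at both ends of that distance, with CG dinucleotides, the sites of DNA methylation, in capitals. The sequences are from GRCm38.p6, another build than that of the peaks, and coordinates were not converted.
First start, chr6:88193641-88193890: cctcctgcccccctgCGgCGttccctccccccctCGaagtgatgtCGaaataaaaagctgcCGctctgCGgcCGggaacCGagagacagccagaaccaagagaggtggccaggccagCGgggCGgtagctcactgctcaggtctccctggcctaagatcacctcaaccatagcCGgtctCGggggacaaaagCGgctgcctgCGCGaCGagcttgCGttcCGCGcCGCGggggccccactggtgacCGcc
Second start, chr6:88198414-88198663: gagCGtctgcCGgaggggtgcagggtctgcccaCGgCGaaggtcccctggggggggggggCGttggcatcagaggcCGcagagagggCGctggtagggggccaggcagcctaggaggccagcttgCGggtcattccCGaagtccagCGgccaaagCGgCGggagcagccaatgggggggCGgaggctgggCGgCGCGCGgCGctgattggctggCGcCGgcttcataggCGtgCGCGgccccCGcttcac

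Both stretches were rich in CG. The first held 22 CG dinucleotides, more than 85.2% of 32851 mouse promoter stretches of the same length, and the second held 24, more than 88% of them, where the median was 6. On neither strand did they hold the GATA motif AGATAA or its variants, TGATAA with another first base, AGATAG with another last base and TGATAG with both. At least 1 of these forms occurs in 26.5% of all promoter stretches. The E-box form CAGATG and the palindromic forms CAGCTG as well as CATATG were not found either, where 28.1% of promoter stretches hold 1 of them. The same was true of the ETS motif AGGAAG and its variant CGGAAG, of which 39.2% hold at least 1. These counts describe the printed letters only, and the enhancers' own sequences were not analysed here.

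In the GRCm38.p6 gene table the protein-coding neighbours of Gata2 are Rpn1 before it and Dnajb8 after it. The table places 2 long non-coding RNAs, Gm38708 and Gm38856, between Rpn1 and Dnajb8 besides Gata2, and Gm38708 overlaps Gata2. In mm9 the gene was taken to run from about 88143900 to 88157000, and distances below are from that start to the centre of a peak. Of the 24 peaks, 16 lay more than 10 kb upstream, 3 lay within 10 kb upstream, 4 overlapped the gene and 1 lay downstream.

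The Gata2 locus was among the densest stretches of open chromatin in these cells. Its 24 peaks compare with a median of 3 in 25164 windows of the same width (105 kb) laid along the chromosomes, and 99.0% of windows held fewer. These windows include empty ones, since 17437 of them held a peak. They were laid without regard to genes, while the stretch was drawn around Gata2 and its enhancers. Its summed signal was 326 CPM (counts per 1e6 counts of the library, after TMM scaling), above that of 99.3% of windows. Peaks of the locus were 200 to 1305 bp wide and covered 12.6% of it. Per length, 9 of the 24 were stronger than 90% of all peaks in the table.

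**Figure D1:**
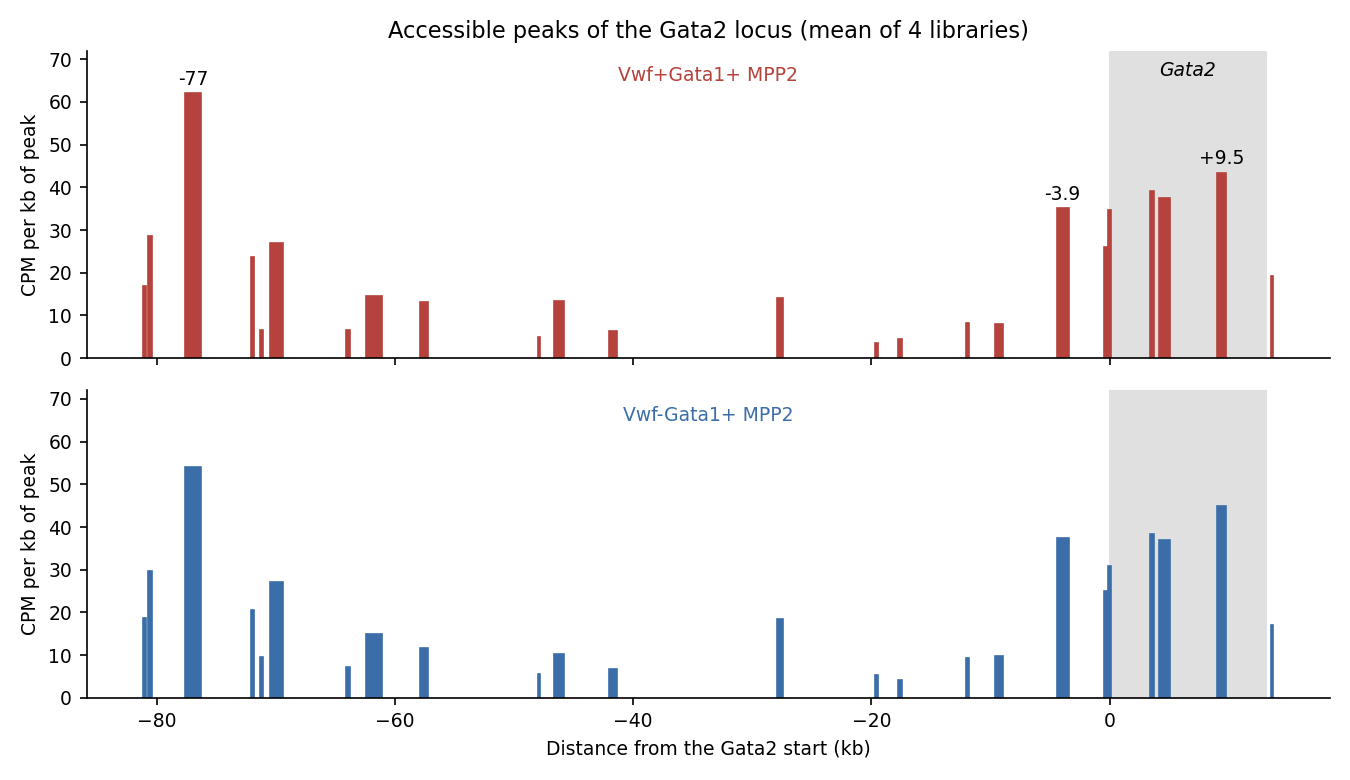
Mean signal of each peak in CPM per kb of peak (vertical axis, 4 libraries per group) against distance from the Gata2 start in kb, with bar widths to scale and the gene shaded in grey. In both groups the tallest bar is the -77 peak, at 62.1 CPM per kb in Vwf+Gata1+ and 54.04 CPM per kb in Vwf-Gata1+ cells.

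Open chromatin was unevenly spread along the locus. The 5 strongest peaks, which were the -77 enhancer, a peak 69.9 kb upstream, the -3.9 enhancer, a peak 4.59 kb into the gene and the +9.5 enhancer, held 64.0% of the signal. The other 19 peaks had mean signals from 1.12 to 19.0 CPM. Peaks more than 10 kb upstream held 56.9% of the signal of the locus, the gene itself 26.5% and the 10 kb before it 15.5%. The -77 peak was the strongest per length, with 58.1 CPM per kb, above 99.5% of all peaks. The +9.5 peak followed with 44.1 CPM per kb, above 98.3%. A narrow peak of 316 bp in the gene, centred at 3.54 kb, had 38.8 CPM per kb, the peak at 4.59 kb had 37.2, and the -3.9 peak had 36.3.

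**Figure D2:**
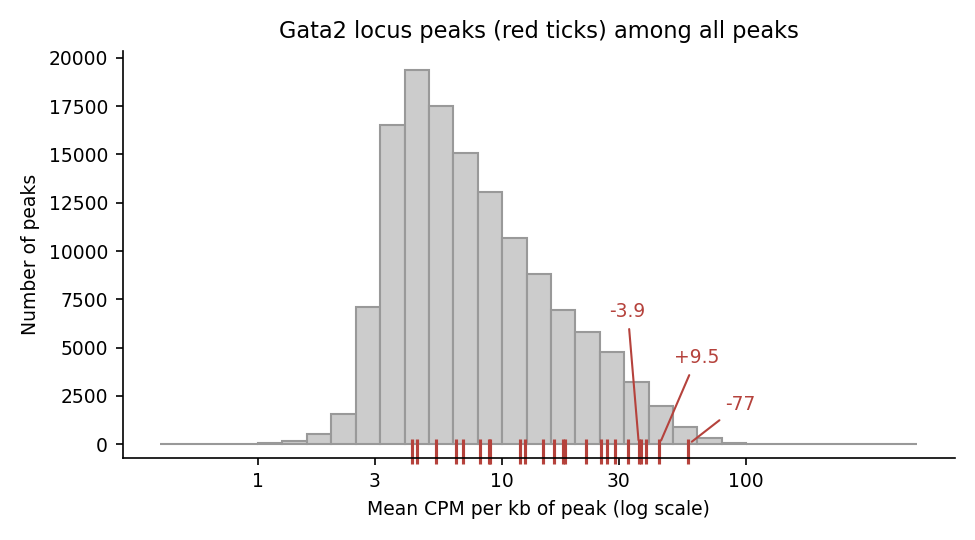
Number of peaks in the whole table (grey bars) by mean signal over 8 libraries in CPM per kb of peak, on a log axis, with the 24 peaks of the Gata2 locus as red ticks. Of the 24, 20 lie above the median of all peaks, 6.73 CPM per kb, and the -77, +9.5 and -3.9 enhancers lie in the upper tail.

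Of the 24 peaks, 21 had enough counts to be tested. The 3 left out, at 47.9, 19.6 and 17.6 kb upstream, had 2 to 17 counts per library. None of the 21 differed between the subpopulations in the quasi-likelihood test of edgeR at a threshold of 0.05 for the adjusted p, in which 0.0144% of the 97040 peaks tested over the whole table were called. DESeq2 and limma-voom also called 0 of the 21. Over the whole table DESeq2 called 8 higher and 0 lower, and limma-voom 1 and 0, so calls were rare anywhere. At an unadjusted p under 0.05, edgeR placed 2 of the 21 as higher in Vwf+Gata1+ cells and 0 as lower, beside 3.52% higher and 3.2% lower over all tested peaks. DESeq2 placed 1 and 0, and limma-voom 1 and 1. In either direction, 3372 of the 97040 tested peaks had such a p in DESeq2 and 7273 in limma-voom. Signal of the groups overlapped at every one of the 21, while 3.88% of all tested peaks had groups that did not overlap. The log2 fold change (Vwf+Gata1+ minus Vwf-Gata1+) was above 0 at 9 of the 21, or 42.9%, beside 50.7% of all tested peaks, with a median of -0.03 beside 0.00 over all tested peaks.

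Summed over the locus, signal was 330 ± 16.9 CPM (SD, n = 4) in the Vwf+Gata1+ group and 323 ± 26.5 CPM (SD, n = 4) in the Vwf-Gata1+ group, a difference smaller than the spread between libraries. The peaks more than 10 kb upstream summed to 190 ± 9.81 CPM and 181 ± 13.4 CPM, and those in the gene to 86.7 ± 8.44 CPM and 86.1 ± 9.58 CPM. In bulk libraries, a change in the share of cells with an open site and a change in how open it is per cell cannot be told apart.

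The -77 enhancer is the site whose human counterpart is moved next to the MECOM oncogene by chromosome 3 rearrangements in leukaemia. Its peak (mm9, chr6:88066291-88067595) was the widest of the locus. Its signal was 71.0, 85.2, 90.1 and 77.8 CPM in replicates 1 to 4 of Vwf+Gata1+ cells. It was 63.8, 68.9, 77.6 and 71.8 CPM in replicates 1 to 4 of Vwf-Gata1+ cells. Replicate 1 was the lowest library of each group and replicate 3 the highest, and the ranges of the groups overlapped. The mean was higher in Vwf+Gata1+ cells, 81.0 ± 8.38 CPM against 70.5 ± 5.78 CPM (SD over 4 libraries), and the log2 fold change was 0.20 ± 0.09 (SE). This had the lowest p of the 21 but did not pass (edgeR unadjusted p = 0.0309, adjusted p = 0.705). The 95% interval of the fold change, not adjusted for the number of peaks, ran from 1.01 to 1.3.

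The next strong peak downstream of the -77 enhancer was centred 69.9 kb upstream of the gene (chr6:88073401-88074531). It had 26.1, 33.4, 32.5 and 30.05 CPM in Vwf+Gata1+ cells and 28.1, 30.4, 32.6 and 31.2 CPM in Vwf-Gata1+ cells, replicates 1 to 4. The groups covered nearly the same range, with a log2 difference of -0.01 ± 0.10 (SE; adjusted p in edgeR = 0.994) and a 95% interval from 0.861- to 1.14-fold. Another wide peak at 61.7 kb upstream (chr6:88081514-88082806) had 18.7 ± 1.5 CPM against 19.2 ± 3.63 CPM (SD, n = 4 each). Its log2 fold change was -0.03 ± 0.13 (SE).

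Between these and the gene lay weaker peaks, with the lowest p in each direction after that of the -77 peak. At 46.2 kb upstream (chr6:88097278-88098089) the libraries of Vwf+Gata1+ cells had 9.48, 10.9, 13.3 and 9.49 CPM, and those of Vwf-Gata1+ cells had 7.06, 7.84, 10.1 and 8.46 CPM. The highest library of the second group lay within the range of the first. The log2 fold change was 0.36 ± 0.17 (SE; edgeR unadjusted p = 0.0417, adjusted p = 0.73). This peak was named after its values were seen, as the second of the 2 with an unadjusted p under 0.05.

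The peak with the lowest p among those lower in Vwf+Gata1+ cells was centred 27.7 kb upstream (chr6:88116000-88116454). It had 8.82, 7.32, 3.9 and 5.75 CPM in Vwf+Gata1+ cells and 7.97, 9.07, 8.19 and 8.46 CPM in Vwf-Gata1+ cells. The first group was widely spread and its replicate 1 lay inside the narrow range of the second. The log2 fold change was -0.34 ± 0.19 (SE; edgeR unadjusted p = 0.0818, adjusted p = 0.786). It was -0.551 without replicate 1 of Vwf+Gata1+ cells (edgeR unadjusted p = 0.0117, adjusted p = 0.472) and -0.2 without replicate 3 of that group (edgeR unadjusted p = 0.288, adjusted p = 0.934).

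The remaining upstream peaks were weak beside the strongest sites of the locus and showed no difference past the threshold. Some were not weak among all peaks: the one at 80.6 kb upstream had 29.1 CPM per kb, above 93.9% of them. The pair at 81.0 and 80.6 kb upstream, just beyond the -77 enhancer, had log2 fold changes of -0.12 ± 0.24 and -0.05 ± 0.16 (SE). The narrow pair at 71.9 and 71.2 kb upstream went in opposite directions, with 0.19 ± 0.20 and -0.47 ± 0.35 (SE), the latter from 1.39 ± 0.335 CPM against 2.03 ± 0.599 CPM (SD over 4 libraries). Neither interval left out equal signal. The peaks at 63.9 and 57.5 kb upstream had log2 fold changes of -0.09 ± 0.32 and 0.17 ± 0.18 (SE). At 41.7 kb upstream 1 library, replicate 2 of Vwf+Gata1+ cells, was low at 1.31 CPM, while the other 7 had 3.79 to 6.06 CPM, and the log2 fold change was -0.04 ± 0.27 (SE). The peaks nearest the gene in this stretch, at 11.9 and 9.2 kb upstream, had log2 fold changes of -0.13 ± 0.29 and -0.29 ± 0.21 (SE). The 3 peaks too weak to test had mean signals of 1.12 to 1.26 CPM over all 8 libraries.

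**Figure D3:**
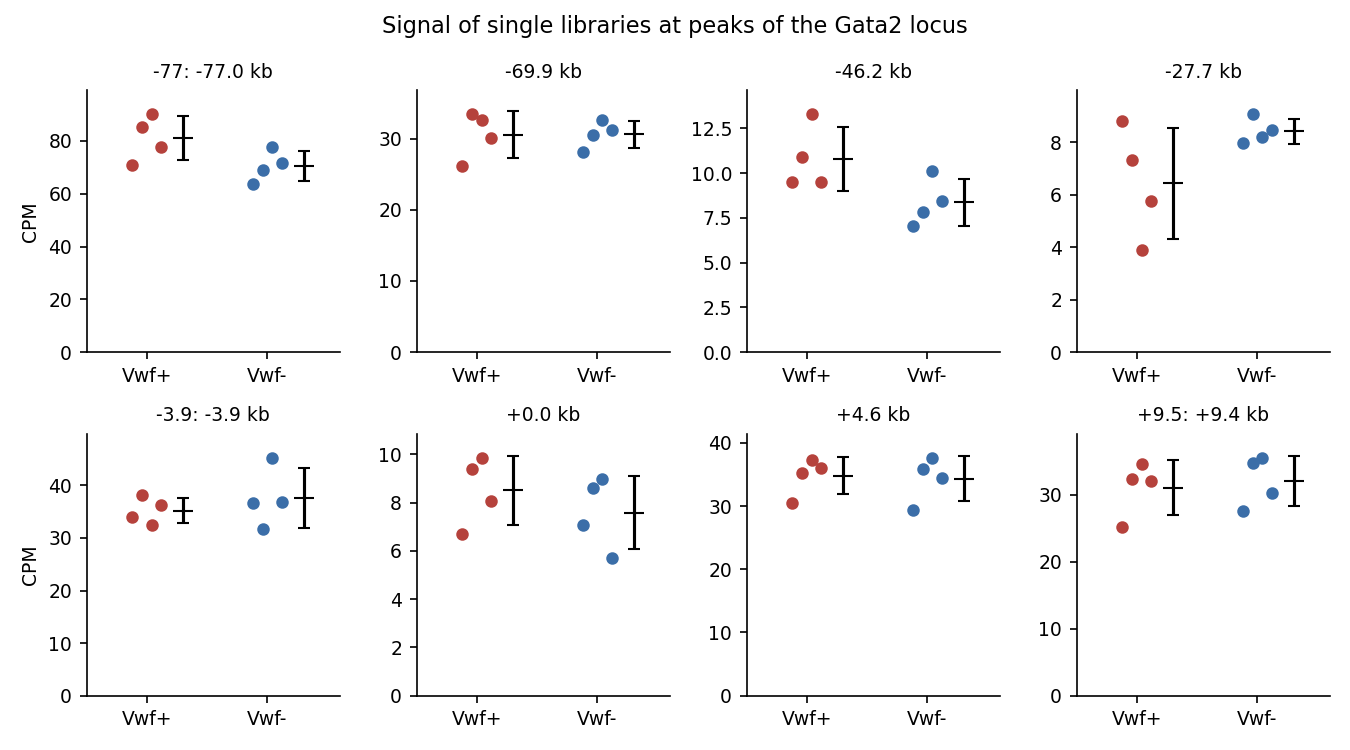
Signal in CPM (vertical axes, each from 0) of single libraries at 8 peaks of the locus, titled by element and distance from the Gata2 start, with Vwf+Gata1+ cells in red and Vwf-Gata1+ cells in blue, replicates 1 to 4 from left to right. Black marks give the mean ± SD of 4 libraries; the ranges of the groups overlap in each of the 8 panels.

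Close to the gene, the enhancers called -3.9, -2.8 and -1.8 are sites where GATA1 replaces GATA2 in red cell precursors. The -3.9 position lay inside a peak of 1002 bp (chr6:88139454-88140455). The libraries of Vwf+Gata1+ cells had 34.0, 38.1, 32.5 and 36.2 CPM there. Those of Vwf-Gata1+ cells had 36.7, 31.7, 45.2 and 36.8 CPM. Replicate 3 of Vwf-Gata1+ cells stood above the rest, which lay between 31.7 and 38.1 CPM, and the log2 fold change was -0.09 ± 0.10 (SE; edgeR adjusted p = 0.93), with a 95% interval from 0.818- to 1.09-fold. No listed peak lay within 500 bp of the -2.8 or the -1.8 position, which were 645 and 1331 bp from the nearest peak edge. The sources used here do not give how strong a site had to be to enter the list, so this does not say that these sites were closed.

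The start of the gene carried 2 narrow peaks 42 bp apart that were much weaker than the enhancers. The one at the start itself (chr6:88143800-88144044, 245 bp) had 6.72, 9.38, 9.86 and 8.05 CPM in Vwf+Gata1+ cells and 7.06, 8.61, 8.97 and 5.69 CPM in Vwf-Gata1+ cells. The groups overlapped, with a log2 difference of 0.15 ± 0.18 (SE; adjusted p in edgeR = 0.932) and a 95% interval from 0.859- to 1.44-fold. Leaving out 1 library gave log2 values from 0.035, without replicate 4 of Vwf-Gata1+ cells, to 0.264, without replicate 1 of Vwf+Gata1+ cells. The one just before it, centred 0.31 kb upstream, had 8.5 ± 0.733 CPM against 8.16 ± 0.897 CPM (SD, n = 4 each). Per length, the peak at the start had 32.8 CPM per kb, above 95.6% of all peaks, so its low total goes with its small width.

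Within the gene, a wide peak ran from 4.13 to 5.05 kb past the start (chr6:88148026-88148954), the stretch in which the distance between the RefSeq starts, 4.77 kb, would fall. It had 30.6, 35.3, 37.4 and 35.9 CPM in Vwf+Gata1+ cells and 29.4, 35.8, 37.6 and 34.4 CPM in Vwf-Gata1+ cells. The 2 groups had nearly the same values replicate by replicate, with replicate 1 lowest and replicate 3 highest in both. The log2 fold change was 0.02 ± 0.10 (SE; edgeR adjusted p = 0.99), with a 95% interval from 0.881- to 1.16-fold. The narrow peak before it, at 3.54 kb, had 12.4 ± 1.07 CPM against 12.2 ± 1.52 CPM (SD over 4 libraries), a log2 difference of 0.04 ± 0.15 (SE).

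The +9.5 enhancer carries an E-box next to a GATA motif, to which TAL1 and GATA factors bind together. Its peak (chr6:88152929-88153642) had 25.2, 32.3, 34.6 and 32.1 CPM in replicates 1 to 4 of Vwf+Gata1+ cells. In Vwf-Gata1+ cells it had 27.6, 34.7, 35.5 and 30.2 CPM. Replicate 1 was again the lowest library of each group. The log2 fold change was -0.05 ± 0.11 (SE; edgeR adjusted p = 0.97), with a 95% interval from 0.831- to 1.12-fold. Past the gene's end, a peak of 200 bp at 13.6 kb had 3.83 ± 0.552 CPM against 3.4 ± 0.899 CPM (SD, n = 4 each).

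**Figure D4:**
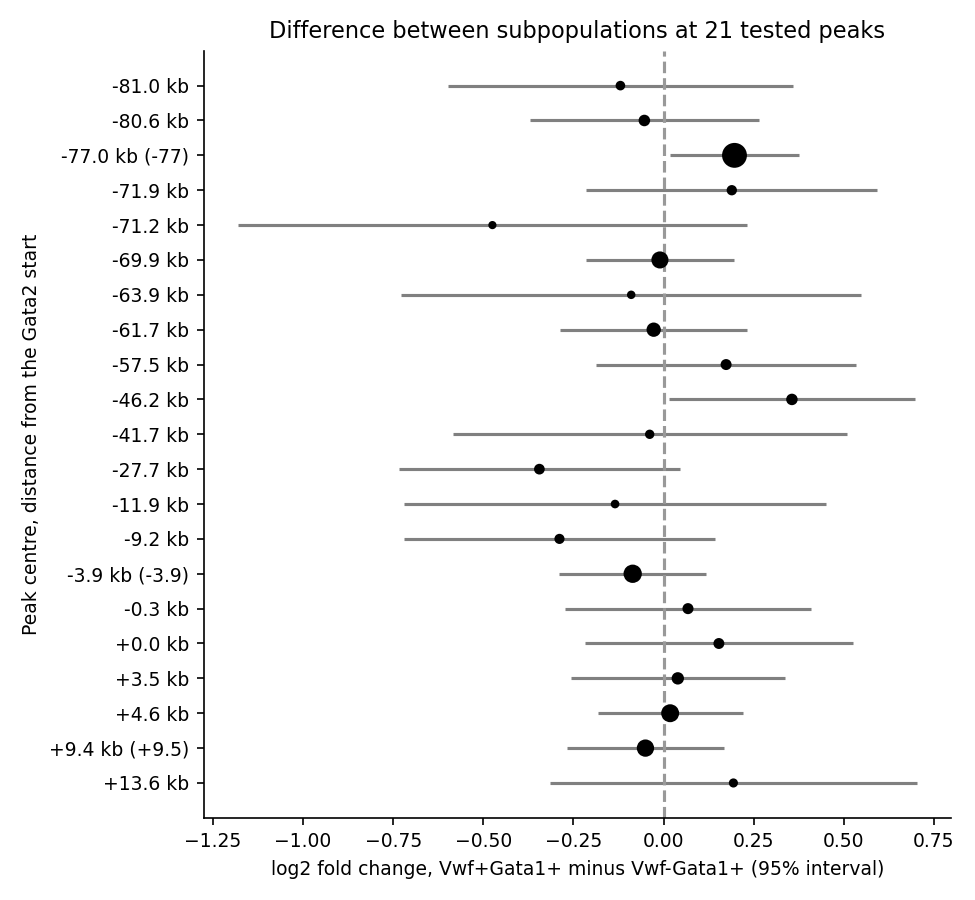
Log2 fold change (Vwf+Gata1+ minus Vwf-Gata1+, horizontal axis) with its unadjusted 95% interval at the 21 tested peaks, ordered along the locus by distance from the Gata2 start, with larger dots for stronger peaks. Values run from -0.47 at 71.2 kb upstream to 0.36 at 46.2 kb upstream, and intervals are narrowest at the strong sites.

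Precision followed signal. At 11 of the 21 tested peaks the 95% interval lay within 1.5-fold in either direction, and at 20 it lay within 2-fold, beside 41.5% and 85.6% of all tested peaks. The exception was the weak peak at 71.2 kb upstream, with 5 to 17 counts per library and an interval from 0.441- to 1.17-fold. Total counts per library ran from 4628997 to 7753538, of which the locus held 1521 to 2336. Replicate 1 had the most counts in Vwf+Gata1+ (7753538) and Vwf-Gata1+ cells (7670844), and replicate 3 the fewest (4628997 and 5447813). The percent of a library's counts in the locus was lowest in replicate 1 of each group (0.0301 and 0.0300). It was highest in replicate 3 (0.0329 and 0.0340). Whether depth plays a part in the order of the replicates was not tested.

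The balance between the sites was also compared within each library, where it does not depend on how libraries are scaled to each other. The -77 peak took 23.1%, 25.5%, 25.8% and 23.6% of the counts of the locus in replicates 1 to 4 of Vwf+Gata1+ cells. It took 21.2%, 22.3%, 21.5% and 22.5% in Vwf-Gata1+ cells. All 4 libraries of the first group lay above all 4 of the second, with means of 24.5% ± 1.39 and 21.9% ± 0.616 (SD, n = 4 each). Of the 21 tested peaks this was so in either direction for 2, the other being the peak at 46.2 kb upstream with 3.26% ± 0.402 against 2.58% ± 0.197. In other windows of the same width with at least 10 peaks, 3.72% of tested peaks had shares that did not overlap.

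The ratio of counts at the -77 peak to those at the +9.5 peak was 2.82, 2.64, 2.6 and 2.43 in Vwf+Gata1+ cells. It was 2.31, 1.98, 2.19 and 2.38 in Vwf-Gata1+ cells. The groups did not overlap, with means of 2.62 ± 0.162 and 2.21 ± 0.174 (SD, n = 4 each), though the lowest of the first group and the highest of the second were close. Of all 210 pairs of tested peaks in the locus, 7 had ratios that did not overlap between groups, which is 3.33%. All of these but the pair at 71.2 and 57.5 kb upstream held the -77 peak or the peak at 46.2 kb upstream. The 210 pairs reuse the same 21 peaks and are not separate observations. Of 3158 pairs elsewhere in the genome with at least 20 CPM each and 80 to 95 kb apart, 3.61% had ratios that did not overlap. In the locus 2 pairs meet these limits, -77 with +9.5 and -77 with the peak at 4.59 kb, and 1 of them did not overlap, so the 210 pairs and the 3158 are not sets of the same kind. No p is given for the ratio or for the share of the -77 peak, which were not among the planned measures. Both use the same counts as the fold change of the -77 peak, so they are not separate evidence of a difference there.

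**Figure D5:**
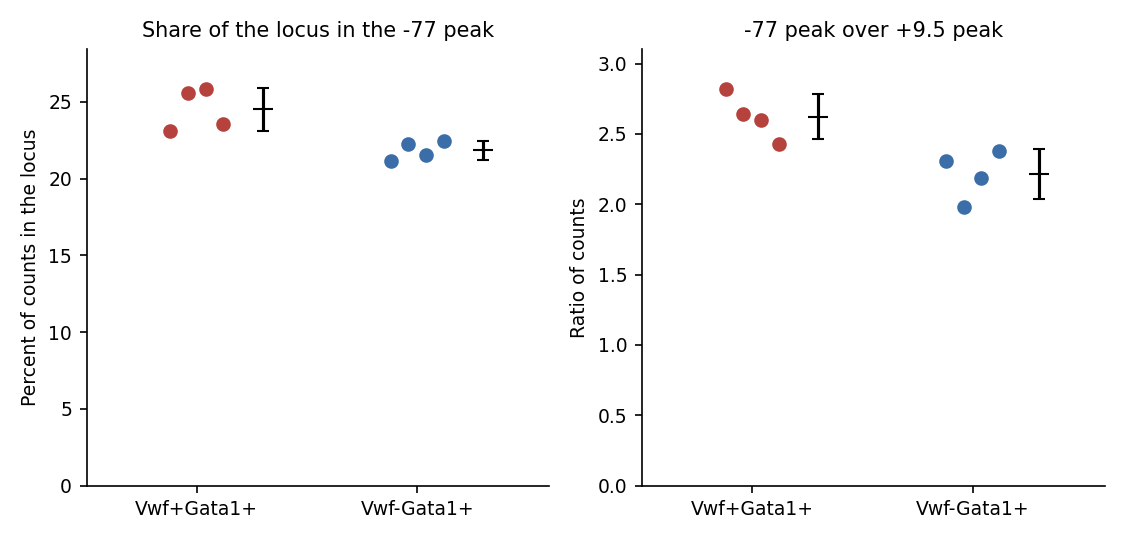
Percent of the counts of the locus that fell in the -77 peak (left) and ratio of counts at the -77 peak to counts at the +9.5 peak (right), for single libraries of Vwf+Gata1+ (red) and Vwf-Gata1+ (blue) cells, replicates 1 to 4 from left to right, with mean ± SD in black. Means are 24.5% and 21.9% on the left and 2.62 and 2.21 on the right, and neither pair of ranges overlaps.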

How the data were processed

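Chromatin accessibility was measured by Omni-ATAC-seq, in which the Tn5 transposase inserts adapters into open DNA. The authors deposited 1 table of raw counts per peak for the 8 libraries. The submitters' processing notes name mm9 as the build and, without settings or order, MACS2, Picard, SAMtools, Bowtie2, FastQC and Trim Galore as tools. The shift of read ends, the treatment of duplicates and the merging of peaks are not given in the sources used here.

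All peaks of the table were fitted together. Peaks with low counts were removed with filterByExpr (minimum count 10, minimum total 15), which kept 97040 peaks (72.2%). Libraries were scaled by TMM, and CPM values use these scaled totals. Groups were compared with edgeR's robust quasi-likelihood test, with Benjamini-Hochberg adjustment over all tested peaks and a threshold of 0.05. No 2 libraries of a group agreed within sampling noise (chi-square per degree of freedom 1.29 to 1.94).

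A peak was matched to an enhancer when its edge lay within 500 bp of the named distance from the gene start. Full values are given for matched peaks, the peak at the start, the 2 strongest per length and the lowest p in each direction; other peaks with values were added with their results known. The members and lists were chosen with earlier results of these data known. Peaks at genes that work with Gata2 or that define the sort were not analysed here, since no annotation of mm9 was used. Fits were made in R 4.3.3 with edgeR 4.0.16 and, as alternatives, DESeq2 1.42.0 and limma 3.58.1, and figures in Python 3.11.15 with matplotlib 3.10.9.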

Additional observations from a re-analysis of the deposited data

How the results depend on the processing

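No peak of the locus was called in either direction under any of the 15 other fits, which were scaling by RLE or by total count, testing without a filter or above 1 CPM in 4 libraries, limma-voom with quality weights, DESeq2, a block for the replicate number, and each of the 8 libraries left out in turn (range 0 to 0). The lowest adjusted p was 0.14, at the -77 peak with the replicate block (log2 fold change 0.195, unadjusted p = 0.00195, 0 peaks of the locus called). Without the replicate block, calls over the whole table were few in every fit. They ran from 1 higher and 0 lower with limma-voom to 66 and 10 without replicate 1 of Vwf+Gata1+ cells. The replicate block raised the calls over the whole table from 13 higher and 1 lower to 375 and 136. The labels give no meaning to a shared number. Deviations of same-numbered libraries from their groups' means had correlations of 0.309, 0.168, 0.0762 and 0.0109 (replicates 1 to 4), not all above 0.1, so the samples were not taken as paired. The correlations were all positive, and they cannot settle whether the libraries were in fact paired.

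The -77 peak stayed higher in Vwf+Gata1+ cells in all 15 fits, with log2 fold changes from 0.145 to 0.258. With 1 library left out, its edgeR unadjusted p ran from 0.00696 (without replicate 1 of Vwf+Gata1+ cells) to 0.136 (without replicate 3 of that group). It was also above 0.05 without replicate 1 of Vwf-Gata1+ cells (edgeR unadjusted p = 0.0949). Of 75 values for the 5 peaks named by the rule, 3 changed sign. The +9.5 peak went from -0.05 to 0.0482 without replicate 1 of Vwf+Gata1+ cells and to 0.000928 without replicate 3 of Vwf-Gata1+ cells. The -3.9 peak went from -0.09 to 0.00823 without replicate 3 of Vwf-Gata1+ cells. Leaving out 1 library gave -0.118 to 0.0482 at the +9.5 peak, -0.159 to 0.00823 at the -3.9 peak, 0.035 to 0.264 at the gene start and -0.551 to -0.2 at 27.7 kb upstream. The summed log2 ratio of the locus, 0.03, ran from 0.000194 to 0.0897. With edges allowed within 1000 bp, the -2.8 position also matched 1 peak, the one at -3.9. The standard error of the log2 fold change ran from 0.09 at the -77 peak, with 393 to 541 counts per library, to 0.35 at the peak 71.2 kb upstream, with 5 to 17.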

Other observations

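The peaks elsewhere in the genome whose relative signal over the 8 libraries was most like that of the -77 enhancer lay on other chromosomes. They were chr10:79577688-79578730, chr8:26308998-26309409 and chr15:12134135-12135519 (mm9), with root mean square differences of 0.0213, 0.0267 and 0.031 from its centred log2 profile. The median over all other tested peaks was 0.305, and the most similar peak of the Gata2 locus itself was at 0.108. With 97040 peaks and 8 libraries this is a description of the profiles only.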
